A study of Homo sapiens with 6 samples.

Results

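The antigen processing and MHC class II genes described here are CD74, HLA-DRA, PSMB9 and TAP1, read by 5 of the 47231 probes of an Illumina bead array. They were chosen by gene name, not by a threshold on their values, but with earlier results of these data known. Each probe was paired with its gene by the selection rule. No platform annotation was used to check those pairs. Gene expression was measured in SKBR3, an established cell line from a human breast carcinoma that carries extra copies of HER2, as biotin-labelled cRNA made from total RNA. Per the labels, 3 arrays came from cells overexpressing CDCP1, a transmembrane glycoprotein, and 3 from control cells, whose titles name GFP. The vector, the promoter driving CDCP1 and whether the cells were 1 clone or a pool are not given in the sources. The study concerns the interaction of CDCP1 and HER2. The arrays show which probes differ between cells labelled as overexpressing CDCP1 and control cells. The CDCP1 transcript and the markers of SKBR3 were not analysed here because their probes were not paired with genes. The rise in CDCP1 was therefore not checked.

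Cells display peptides on 2 kinds of MHC molecule. For class I, the proteasome cuts cytosolic proteins into peptides, and the TAP transporter, made of TAP1 and TAP2, carries them into the endoplasmic reticulum, where they are loaded. PSMB9 (also called LMP2) is a catalytic subunit that replaces its constitutive counterpart in the immunoproteasome after exposure to interferon gamma. For class II, HLA-DRA encodes the alpha chain of HLA-DR, and CD74, the invariant chain, occupies the peptide groove and guides the molecule to the endosomes. Class II genes are expressed mainly by professional antigen-presenting cells, under the coactivator CIITA, and many epithelial cells express them after interferon gamma.

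TAP1 and PSMB9 lie head to head in the MHC, with 487 bases between their RefSeq start sites and 0 other RefSeq genes over that stretch. Their upstream sequences are shown because TAP1 was read above background on these arrays and PSMB9 was not, and that of CD74 is shown as the class II counterpart. Upstream windows were matched by symbol for 3 of the 4 genes (CD74, PSMB9 and TAP1). RefSeq gives TAP1 2 start sites, and the window printed is that of the start facing PSMB9. The 250 bases before 1 start site of each gene are given 5′ to 3′ on the strand of the gene, from RefSeq on GRCh38.p14, with motif matches in capitals. The TAP1 window is at chr6:32853705-32853954 (minus strand), the PSMB9 window at chr6:32853942-32854191 (plus strand) and the CD74 window at chr5:150412911-150413160 (minus strand).
TAP1: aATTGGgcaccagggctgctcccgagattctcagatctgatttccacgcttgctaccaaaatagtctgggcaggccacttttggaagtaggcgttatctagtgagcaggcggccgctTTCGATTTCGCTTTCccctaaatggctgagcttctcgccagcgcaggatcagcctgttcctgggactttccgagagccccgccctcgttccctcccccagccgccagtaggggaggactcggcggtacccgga
PSMB9: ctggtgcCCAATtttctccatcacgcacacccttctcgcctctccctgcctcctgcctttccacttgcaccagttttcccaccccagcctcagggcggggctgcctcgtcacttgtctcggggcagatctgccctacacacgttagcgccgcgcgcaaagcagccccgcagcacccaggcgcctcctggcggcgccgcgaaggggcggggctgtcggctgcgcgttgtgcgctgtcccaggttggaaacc
CD74: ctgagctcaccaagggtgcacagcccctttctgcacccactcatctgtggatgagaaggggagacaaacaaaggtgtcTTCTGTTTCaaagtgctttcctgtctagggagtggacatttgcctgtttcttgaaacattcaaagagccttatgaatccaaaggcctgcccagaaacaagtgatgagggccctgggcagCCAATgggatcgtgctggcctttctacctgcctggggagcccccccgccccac

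The capitals mark matches, on either strand, to 2 motifs. These were CCAAT (the core of the Y box bound by NF-Y) and GAAANNGAA (a core of the element bound by interferon regulatory factors). The printed TAP1 window held 2 overlapping matches to GAAANNGAA on the opposite strand, TTCGATTTC and TTCGCTTTC, together from 133 to 119 bases before the start. These matches lie between the facing TAP1 and PSMB9 starts, so upstream of both, but beyond the 250 bases searched for PSMB9. The window of the other TAP1 start, at chr6:32852762-32853011 (minus strand), held 0 matches to either motif. The CD74 window held 1, TTCTGTTTC, also on the opposite strand, from 172 to 164 bases before the start, and that motif is present in 6.88% of 35116 such windows. The CCAAT of PSMB9 and the ATTGG of TAP1 are the same site, since the windows share 13 bases. The CCAAT of CD74 lies from 53 to 49 bases before the start, and this motif is present in 32% of windows. These matches describe the letters and do not show that a factor binds there.

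None of the 3 genes that could be tested, HLA-DRA, CD74 and TAP1, passed the test between CDCP1-overexpressing and control cells. HLA-DRA and TAP1 were read clearly above background in both groups. For CD74, 1 probe lay just above the background limit and the other below it, and PSMB9 lay below it on all 6 arrays. The limit was a log2 signal of 6.68, estimated from the array values, and probes above it on at least 3 arrays were tested. Of the 5 probes, 3 were tested and 0 passed the threshold of 0.05 for the limma p adjusted over all tested probes by Benjamini-Hochberg, and 1 (TAP1) was under an unadjusted p of 0.05. Among all 31456 tested probes, 5.26% passed the adjusted threshold and 17.1% were under an unadjusted p of 0.05. The median log2 change was -0.12 over the 3 tested members, which is the value of HLA-DRA alone, and -0.0041 over all tested probes. The 2 probes left out of the test had higher means in the CDCP1 group, at background-level signal. In bulk RNA, fewer cells expressing a gene and less RNA per cell cannot be told apart. The groups share 1 slide, and the titles number the 3 samples of a group as experiments 1 to 3 without saying whether these were separate cultures, so the spread behind the p-values may be technical.

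**Figure D1:**
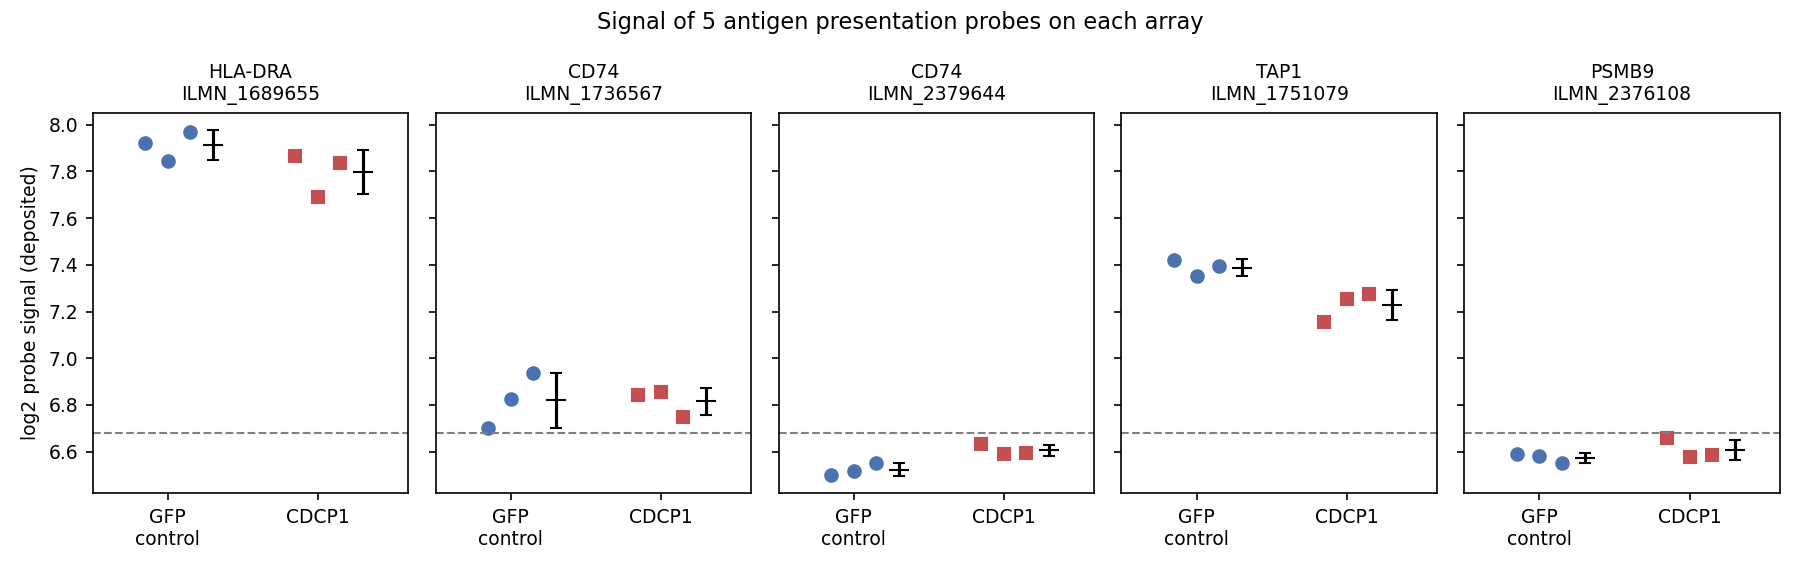
Log2 probe signal (vertical axis) of the 5 probes on each array, with circles for the GFP control and squares for CDCP1. The black marks are the mean and SD of 3 arrays and the dashed line is the background limit of 6.68. The TAP1 groups do not overlap, the HLA-DRA groups do, and PSMB9 and CD74 probe ILMN_2379644 lie below the line on every array.

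TAP1, the transporter subunit on the class I route, was the member with the lowest p. Its probe ILMN_1751079 read 7.42, 7.35 and 7.39 on the log2 scale in GFP control replicates 1, 2 and 3, and 7.15, 7.26 and 7.28 in CDCP1 replicates 1, 2 and 3. All 3 CDCP1 arrays were lower than all 3 controls, with a gap of 0.0738 between the nearest arrays. Groups that did not overlap were seen for 22.0% of all tested probes, and for 11.0% with CDCP1 lower. The control mean was 7.39 ± 0.035 (SD, n = 3) and that of the CDCP1 cells was 7.23 ± 0.065 (SD, n = 3). The log2 change was -0.16 (SE 0.063, 95% interval -0.30 to -0.02), or a signal 10.5% lower, with a limma unadjusted p of 0.0277 and an adjusted p of 0.212. The difference therefore exceeded the spread between the arrays of this probe but did not hold after correction over all tested probes. Among 1548 other tested probes with a mean signal within 0.1 of that of TAP1, 22.1% changed by at least as much in either direction and 5.04% passed the adjusted threshold.

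The lowest TAP1 value was that of CDCP1 replicate 1, the array farthest from the rest of its group over all tested probes. Its log2 difference from the rest of its group had an SD of 0.18 across probes, where the other 5 arrays had 0.099 to 0.138. Without it, the TAP1 change was -0.12 (limma adjusted p = 0.343).

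PSMB9, the immunoproteasome subunit whose gene faces TAP1, was not detected above background. Probe ILMN_2376108 read 6.59, 6.58 and 6.55 in the 3 controls and 6.66, 6.58 and 6.59 in the 3 CDCP1 arrays. CDCP1 replicate 1 was the highest and the groups overlapped. The means of 6.57 ± 0.020 and 6.61 ± 0.044 (SD, n = 3 each) lay near the background mode of 6.62, so the probe was left out of the test and no fold is given. A difference in PSMB9 was not detectable at this signal, which does not show that the transcript is absent.

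HLA-DRA, the class II alpha chain, was read well above the limit in both groups. Probe ILMN_1689655 read 7.92, 7.84 and 7.97 in GFP control replicates 1, 2 and 3, and 7.87, 7.69 and 7.84 in CDCP1 replicates 1, 2 and 3. CDCP1 replicate 2 was the lowest array, and CDCP1 replicate 1 lay above control replicate 2, so the groups overlapped. The control mean was 7.91 ± 0.063 (SD, n = 3) and the CDCP1 mean 7.80 ± 0.095 (SD, n = 3). The log2 change of -0.12 had an SE of 0.070, a 95% interval from -0.27 to 0.04 and a limma adjusted p of 0.474, and so was not distinguishable from 0. On a linear scale that interval runs from 0.83 to 1.03 times the control in signal. Among 981 other tested probes with a mean signal within 0.1 of that of HLA-DRA, 49.2% changed by at least as much and 12.2% passed the adjusted threshold. With background correction by normexp (offset 50), the HLA-DRA log2 change was -0.14, with a wider 95% interval from -0.34 to 0.06. The titles name SKBR3, a cell line, for every array. Markers of other cell types could not be set beside this signal, because their probes were not paired with genes, so the purity of the cells was not checked here.

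CD74, the invariant chain that accompanies class II molecules, was read near background by both of its probes. Probe ILMN_1736567 read 6.70, 6.83 and 6.93 in the controls and 6.84, 6.86 and 6.75 in the CDCP1 arrays. The CDCP1 values all lay within the range of the controls. The means were 6.82 ± 0.12 and 6.82 ± 0.059 (SD, n = 3 each), and the log2 change of -0.0054 had an SE of 0.073, a 95% interval from -0.17 to 0.16 and a limma adjusted p of 0.986. That interval spans 0.89 to 1.11 times the control in signal, and differences this near to background are compressed, so a change in the transcript could be larger. Leaving out GFP control replicate 3 or CDCP1 replicate 3 turned the sign of this change, to 0.05 and 0.03. Other tested probes with a mean signal within 0.1 of that of this probe numbered 9549. Of these, 93.8% changed by at least as much and 0.283% passed the adjusted threshold, so few probes this dim were called.

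The other CD74 probe, ILMN_2379644, read 6.50, 6.52 and 6.55 in the controls and 6.63, 6.59 and 6.60 in the CDCP1 arrays. All CDCP1 arrays were higher, with a gap of 0.0369 between the nearest arrays, but every value lay below the limit and 5 of 6 lay below the background mode of 6.62. Of the 6772 probes below the limit on all arrays, 9.47% had groups that did not overlap. The difference in means, 0.083 on the log2 scale, was left out of the main test (limma adjusted p = 0.462 with no filter on dim probes). It is a difference in background-level signal, not a measured change of CD74. The signs of the CD74 probes differed.

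**Figure D2:**
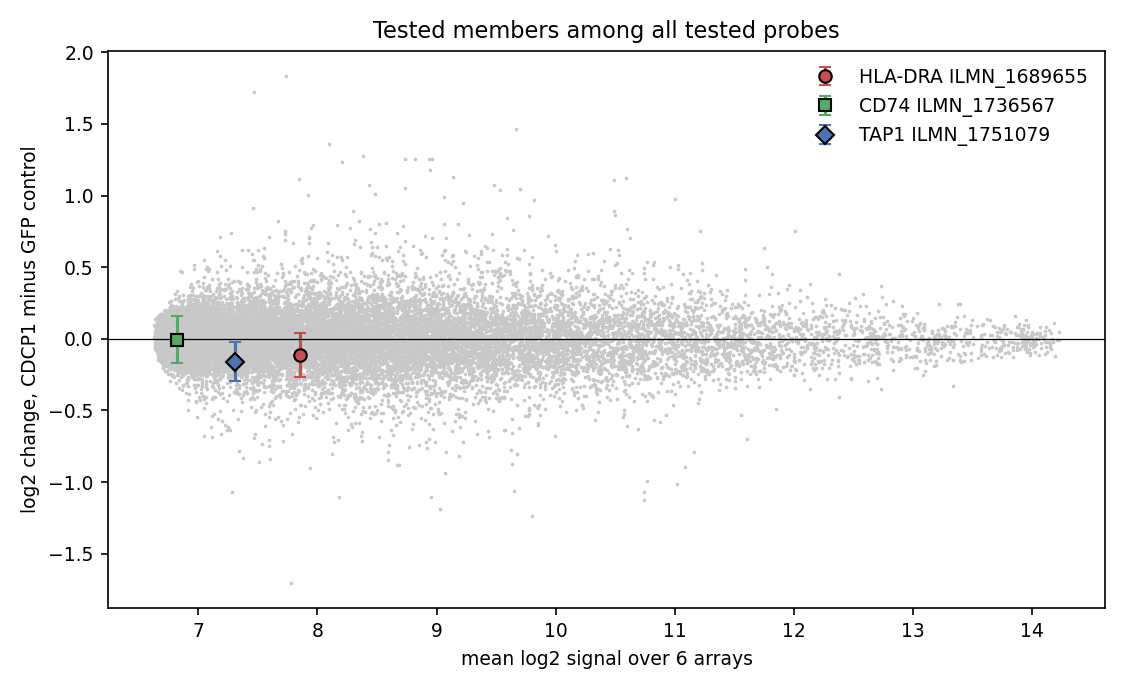
Log2 change, CDCP1 minus GFP control (vertical axis), against the mean log2 signal over 6 arrays (horizontal axis) for the 31456 tested probes (grey). The tested members are marked with 95% intervals from limma. TAP1 at -0.16, HLA-DRA at -0.12 and CD74 at -0.0054 all lie inside the cloud of probes of like signal.

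**Figure D3:**
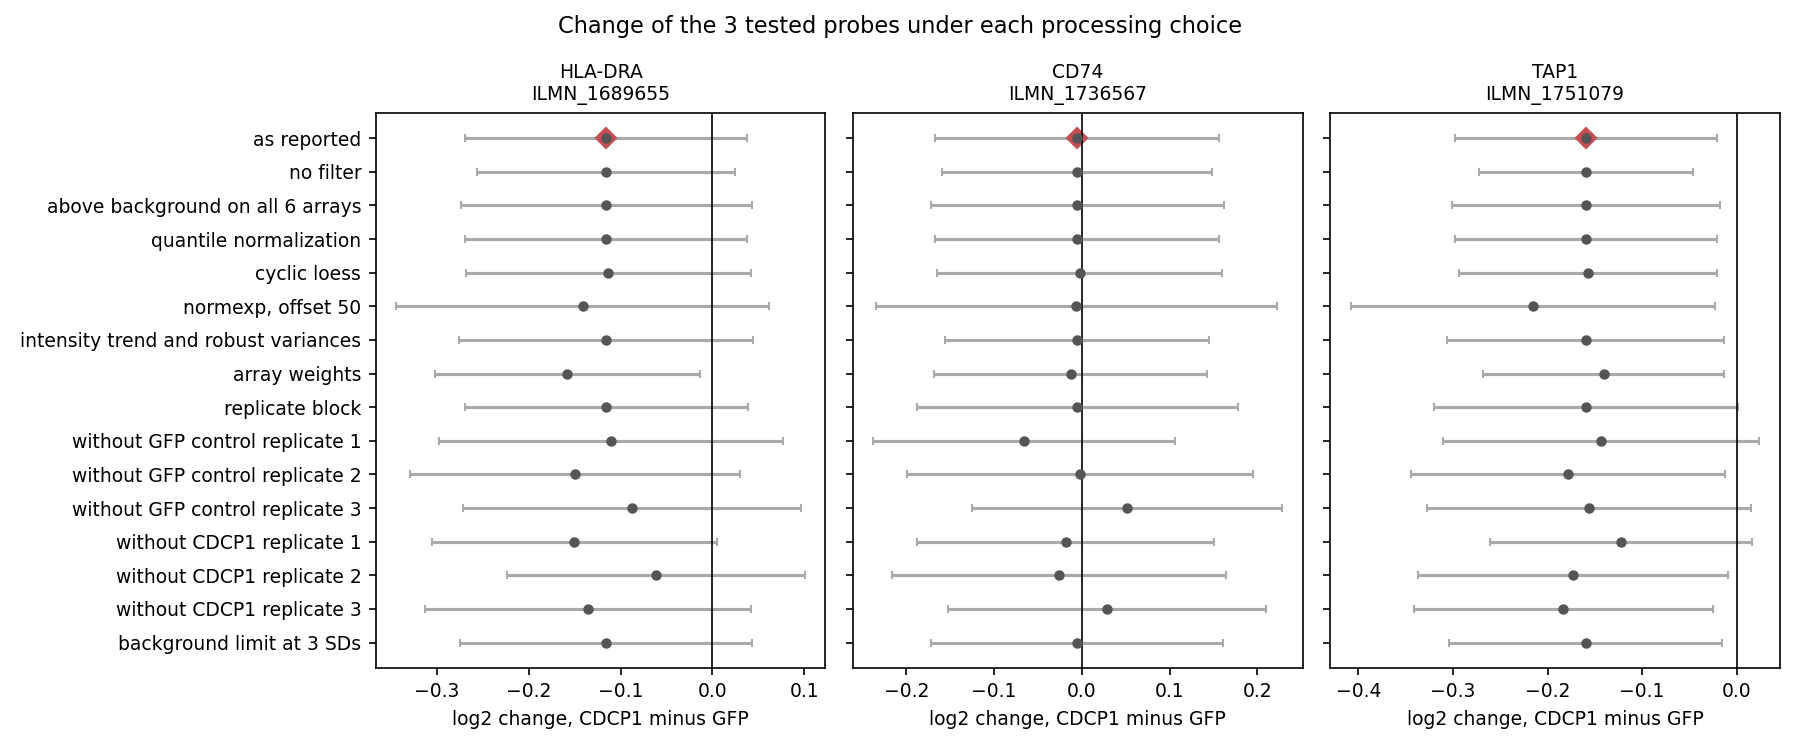
Log2 change, CDCP1 minus GFP control, with 95% limma intervals for the 3 tested probes (columns) under each processing choice (lines of the vertical axis), the reported value as a red diamond. The changes of TAP1 and HLA-DRA stay below 0 throughout, while that of CD74 lies on both sides of 0 when an array is left out. The HLA-DRA interval reaches past 0 on every line except array weights. That of TAP1 does so with the replicate block and without GFP control replicate 1, GFP control replicate 3 or CDCP1 replicate 1.

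The direction of TAP1 and HLA-DRA was the same under all 15 alternatives computed for each. The log2 changes ran from -0.22 to -0.12 for TAP1 and from -0.16 to -0.06 for HLA-DRA. Changing the filter, the variance model or the replicate block cannot alter a probe's difference in means. Under those alternatives the direction was fixed, and only the p-values could move. The TAP1 groups do not overlap, so leaving out 1 array or weighting the arrays could not turn its sign either. HLA-DRA moved most with CDCP1 replicate 2, without which its change was -0.06 (limma adjusted p = 0.783). Neither TAP1 nor HLA-DRA was called under any of the 15 alternatives. The lowest adjusted p was 0.167 for TAP1, with no filter on dim probes, and 0.196 for HLA-DRA, with array weights. The changes of the 3 genes were not tested against each other.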

How the data were processed

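Expression was measured on 6 Illumina bead arrays, 3 per group, read by the authors with GenomeStudio, per the submitters' processing notes. Both deposited tables hold the same values (0 differed), although one is named as non-normalized. The deposited values are log2 probe signals, as judged from their range of 6.45 to 14.35. They had been normalized between arrays before deposit, as array medians lay within 0.000523 of each other. The normalization method was not given in the sources used, and folds hold only for a log2 scale. Normalized arrays cannot show a shift shared by most transcripts.

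Background was estimated from the values, after they had been seen, as the mode of all values (6.62), with an SD of 0.0408 from the values below the mode. The limit of 6.68 is 1.645 of these SDs above the mode. Detection p-values were not used here. The 31456 probes above the limit on at least 3 arrays entered a two-sided limma fit (lmFit, eBayes; version 3.58.1 in R 4.3.3) with Benjamini-Hochberg adjustment and a threshold of 0.05. The fit was run on data simulated from its own variance model, which checks the code and not how well the model holds for these arrays. The number of arrays limits the precision, with a median SE of 0.0706. Between 30821 and 30843 probes per array lay above the limit.

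The members, and the lists and rules of the plan, were chosen with earlier results of these data known. Named probes were the 5 members. The planned lists of class I, class II, proteasome, protease and regulator genes, the CDCP1 transcript, the cell type markers and the search for genes of like pattern need a table of probes and genes and were not run. The deviations of arrays with the same number from their group correlated at -0.268, -0.303 and 0.161 across probes, so the experiment numbers were not treated as pairs.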

Additional observations from a re-analysis of the deposited data

How the results depend on the processing

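The 3 tested members were refitted under 15 alternatives each, and 0 of the 45 values passed the limma adjusted threshold of 0.05. The lowest adjusted p was 0.167 (TAP1, no filter on dim probes). With no filter, 0 of all 5 members were called. Background correction by normexp with an offset of 50 gave TAP1 a change of -0.22 (SE 0.089, limma adjusted p = 0.239). The reported change was -0.16 (SE 0.063, limma adjusted p = 0.212). The size of the change and its SE thus both depended on how background was handled. Leaving out 1 array gave -0.18 to -0.12 for TAP1, -0.15 to -0.06 for HLA-DRA and -0.0659 to 0.0516 for CD74 probe ILMN_1736567, whose sign turned without GFP control replicate 3 (0.0516) or CDCP1 replicate 3 (0.0286). With a replicate block by experiment number, TAP1 had an adjusted p of 0.334 and the block changed no call of a member. The count of 1656 called probes over the array was 1085 with the replicate block and 2613 with array weights, where CDCP1 replicate 1 had a weight of 0.381. It was 613 to 2132 when 1 array was left out, with 771, 689 and 613 without GFP control replicates 1, 2 and 3 and 710 without CDCP1 replicate 2; the cause was not tested. The background limit at 3 SDs was added after seeing the data and changed no call of a member. The alternatives for the gene lists, 1 probe per gene and the CDCP1 transcript could not be run without a table of probes and genes. CD74 probe ILMN_2379644 and PSMB9 had a value only without the filter, with adjusted p of 0.462 and 0.863.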
